A study of Mus musculus with 6 samples.

Results

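MHC class II molecules are pairs of an alpha and a beta chain that hold peptides at the cell surface for CD4 T cells. The chains assemble on the invariant chain Cd74, which blocks the peptide groove until proteases of the endosome digest it. The DM heterodimer then exchanges the remaining fragment for other peptides, and the DO heterodimer restrains DM. Transcription of these genes depends on CIITA, a co-activator that does not bind DNA itself but docks on the RFX, NF-Y and CREB/ATF1 factors at class II promoters. In the mouse, dendritic cells, B cells and macrophages are the main cells of the spleen that transcribe class II genes, and T cells transcribe little of them.

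The 10 genes described here were taken by name as the genes of class II presentation, whatever their values, out of the 49671 genes of the deposited count tables. They are Ciita, the chain genes H2-Aa, H2-Ab1 and H2-Eb1, the invariant chain gene Cd74, the DM genes H2-DMa, H2-DMb1 and H2-DMb2, and the DO genes H2-Oa and H2-Ob. All 10 passed the filter on low counts, with between 17 counts (Ciita in BiTS replicate 2) and 12916 counts (Cd74 in BiTS(mut) replicate 1).

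Total RNA was sequenced from cultures of mouse splenocytes that carried the OT-I transgenic T cell receptor, which recognises the SIINFEKL peptide on the class I molecule H2-Kb. The 3 groups were BiTS, BiTS(mut) and isotype, with 2 libraries each. BiTS is, as background from the study's subject, a bispecific molecule that brings the inhibitory receptor LAG-3 close to the T cell receptor. The labels do not say what is mutated in BiTS(mut). Every culture had the OT-I genotype and the SIINFEKL peptide, shown by antigen-presenting cells, and was harvested at 48 h, and the labels name naive CD8 T cells as the cell type. No unstimulated culture was analysed here, so all values are from stimulated cells. The labels do not say whether the libraries of a group came from separate mice or cultures, so the spread between these libraries, on which the p-values rest, may be technical.

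The libraries held between 10813123 and 15239077 gene counts. Their titles carry running numbers. Titles 1 to 3 hold 1 library of each group (BiTS replicate 1, BiTS(mut) replicate 1, isotype replicate 1), called the first set, and titles 4 to 6 hold the others (BiTS replicate 2, BiTS(mut) replicate 2, isotype replicate 4), called the second set. The labels do not say what a title number marks. The sets differed over much of the transcriptome, with 52.7% of the 13996 tested genes called between them, so each result below is given within the sets as well as across them. CPM are counts per 1000000 counts after TMM scaling. Log2 fold changes are from edgeR's quasi-likelihood test with Benjamini-Hochberg adjustment over the 13996 genes, called at an adjusted p under 0.05, and errors on them are standard errors.

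The label of CD8 T cells fits the T cell markers, and the cultures also held dendritic cell transcripts. Cd8a stood at 192 to 370 CPM in the 6 libraries, and Cd4 at 0.0822 to 0.518 CPM. The 18 dendritic cell markers, of which 15 passed the filter, summed to 1599 and 1121 CPM in the BiTS libraries, 1959 and 1244 CPM in the BiTS(mut) libraries, and 1986 and 1202 CPM in the isotype libraries. Among them, Xcr1 and Clec9a, which mark cross-presenting conventional dendritic cells, were present at 10.03 to 34.2 CPM and 14.0 to 47.7 CPM, while Siglech, a plasmacytoid marker, had 0 counts and Cd209a at most 3 counts in every library. Ccr7 alone made up 433 to 773 CPM of the dendritic cell sums. The lineage genes Itgax, Flt3, Zbtb46, Xcr1, Clec9a and Wdfy4 together made up 128 to 415 CPM. The macrophage and monocyte list summed to 38.4 to 65.5 CPM with 6 of 14 members past the filter. The B cell list summed to 68.5 to 106 CPM with 5 of 14 members past the filter, and Ighm made up 52.8 to 95.2 CPM of it. Its members Cd22 and Fcrla stood at 2.71 to 7.95 CPM and 0.568 to 4.51 CPM. Blk, Fcer2a, Cr2 and Igkc had at most 3 counts in every library. Since these are bulk libraries, fewer cells of a type and less RNA per cell cannot be told apart.

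The class II genes other than Ciita and Cd74 lie together on chromosome 17. In the deposited tables (mm10) H2-Oa is at chr17:34092340-34095234, H2-DMa at chr17:34135182-34139101, H2-DMb2 at chr17:34143307-34151553, H2-DMb1 at chr17:34153072-34160230, H2-Ob at chr17:34238903-34245907, H2-Ab1 at chr17:34263209-34269418, H2-Aa at chr17:34282744-34287827 and H2-Eb1 at chr17:34305877-34316199. H2-Aa is on the minus strand and the others are on the plus strand. Ciita is on the plus strand of chromosome 16 (chr16:10488178-10527564). These intervals run from the first to the last exon given for each gene, with the introns between. Those of Ciita, H2-DMa, H2-Ab1 and H2-Ob are shorter than in GENCODE M21, where Ciita starts at 10480059 and H2-DMa at 34119541.

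Class II promoters are known for an X box, bound by RFX and CREB/ATF1, and a Y box, an inverted CCAAT element bound by NF-Y, through which CIITA is recruited. RefSeq promoter sequences (GRCm38.p6) matched 7 of the 10 genes. The 6 windows below are shown because they let the 2 boxes of genes that behaved differently in the libraries be set side by side. Each is the 100 bases from 135 to 36 before the RefSeq start, on the gene's strand. Capitals mark GCAAC, AACNNATGA (which overlaps GCAAC in H2-Ob and H2-Eb1) and the Y-box letters, either CTGATTGG or its core ATTGG.
H2-Aa (minus strand, chr17:34287859-34287958): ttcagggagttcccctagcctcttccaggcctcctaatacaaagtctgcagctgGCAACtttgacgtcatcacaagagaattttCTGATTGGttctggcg
H2-Eb1 (plus strand, chr17:34305732-34305831): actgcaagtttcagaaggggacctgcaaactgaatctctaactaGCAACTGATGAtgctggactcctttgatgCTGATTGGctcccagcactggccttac
H2-DMb1 (plus strand, chr17:34153056-34153155): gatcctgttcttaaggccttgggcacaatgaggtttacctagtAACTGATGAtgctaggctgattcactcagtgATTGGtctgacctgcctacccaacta
H2-DMb2 (plus strand, chr17:34145114-34145213): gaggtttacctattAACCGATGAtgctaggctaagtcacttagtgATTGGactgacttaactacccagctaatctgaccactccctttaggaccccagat
H2-Ob (plus strand, chr17:34238770-34238869): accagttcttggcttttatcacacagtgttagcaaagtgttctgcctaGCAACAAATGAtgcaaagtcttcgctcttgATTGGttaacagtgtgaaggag
H2-Oa (plus strand, chr17:34092244-34092343): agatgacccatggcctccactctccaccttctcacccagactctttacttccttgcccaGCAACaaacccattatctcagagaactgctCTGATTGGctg

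All motifs were searched on both strands of the 300 bases around each of 32851 RefSeq starts, and the percentages that follow count a match on either strand. CTGATTGG, found in H2-Aa, H2-Eb1 and H2-Oa, was in 4.1% of these promoters. ATTGG, which is part of CTGATTGG, was in 37.4% and GCAAC in 35.2%. GCAAC followed by ATTGG 25 to 28 bases on was in 0.201%. That range of distances spans those seen in H2-Aa, H2-Eb1, H2-Ob and H2-Oa, so that these 4 hold the pair is by construction. AACNNATGA, spelled out after the windows had been seen, was in 2.85%, and in H2-Eb1, H2-DMb1, H2-DMb2 and H2-Ob. H2-DMa has 2 RefSeq starts, and neither held CTGATTGG, AACNNATGA or GCAAC followed by ATTGG at that distance. Both of these starts lie upstream of the interval deposited for H2-DMa, and the bases just before that interval were not searched for this gene. Whether the boxes are present there was therefore not tested. The RefSeq start and the window of H2-DMb2 lie inside the interval deposited for that gene, and the windows of H2-DMb1 and H2-Oa overlap theirs in part. These matches describe letters and not bound sites.

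Cd74 lies apart from the others, on the plus strand of chromosome 18 (chr18:60803848-60812646, mm10). Level per kilobase of exon ordered the genes by their roles. The median over the 6 libraries was 370 CPM per kb for Cd74, then 120 for H2-Eb1, 93.3 for H2-Ab1, 59.0 for H2-Aa, 17.6 for H2-DMa, 13.6 for H2-DMb1, 9.71 for H2-Ob, 7.99 for H2-Oa, 3.77 for H2-DMb2 and 0.99 for Ciita. The invariant chain was thus first, the antigen-binding chains next, the DM and DO genes below them, and the co-activator last. Each gene lay above the next in 6 of 6 libraries, except that H2-Ob lay above H2-Oa in 3 of 6, those of the first set. Cd74 alone held 53.3% and 47.4% of the summed CPM of the 10 genes in the BiTS libraries, 52.9% and 46.3% in the BiTS(mut) libraries, and 52.8% and 46.6% in the isotype libraries. H2-DMb1 and H2-DMb2 share exon sequence: 22.7% of the 50-base windows of H2-DMb1 also occur in H2-DMb2, so counts of these 2 genes are uncertain where the counting could split or drop such reads.

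**Figure D1:**
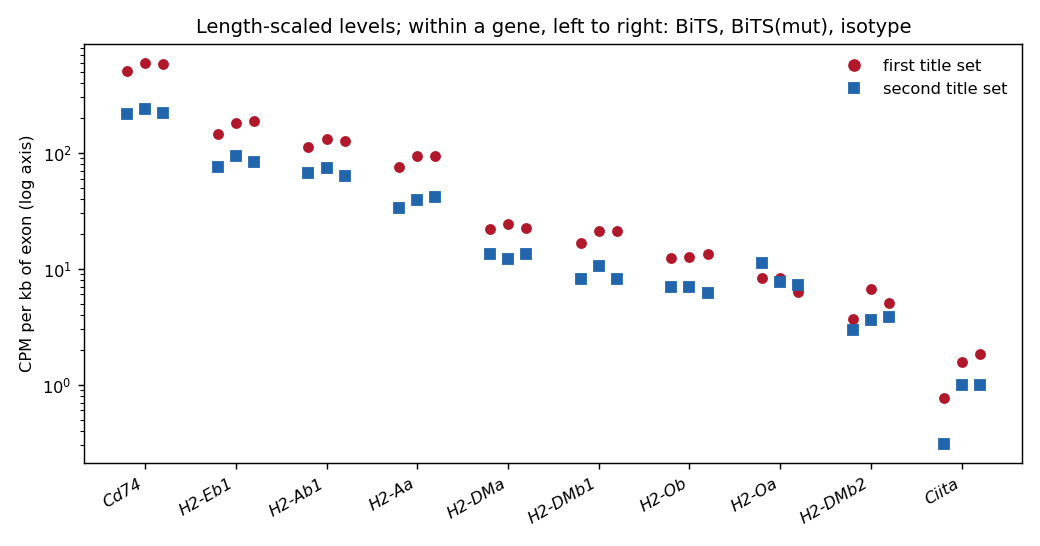
TMM-scaled CPM per kb of exon (log axis) of the 10 genes in each library, with 1 point per library and the groups side by side within a gene. Medians run from 370 CPM per kb for Cd74 down to 0.99 for Ciita, and within each group the first set lies above the second for every gene except H2-Oa.

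In BiTS cultures Ciita was the class II gene with the largest difference from both other treatments. Ciita had 4.07 and 1.61 CPM in BiTS replicates 1 and 2, 8.31 and 5.18 CPM in BiTS(mut) replicates 1 and 2, and 9.69 and 5.23 CPM in isotype replicates 1 and 4. Those values rest on 55 and 17 counts for BiTS, 128 and 63 for BiTS(mut), and 117 and 57 for isotype. Both BiTS libraries lay below all 4 other libraries, also across the sets, and the BiTS(mut) and isotype libraries overlapped. The group means were 2.84 ± 1.74 CPM for BiTS, 6.74 ± 2.21 CPM for BiTS(mut) and 7.46 ± 3.16 CPM for isotype (SD, n = 2 each).

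These standard deviations include the difference between the title sets, so the groups were also compared within each set. BiTS was 2.38-fold below isotype in the first set and 3.25-fold below it in the second set. Against BiTS(mut), BiTS was 2.04-fold lower in the first set and 3.22-fold lower in the second. With 1 coefficient per group and no block for the set, 0 of the 10 genes and 0 of all 13996 genes (0%) were called in any of the 3 comparisons by edgeR, with 176 genes (1.26%), 76 genes (0.543%) and 41 genes (0.293%) at an unadjusted p under 0.05 for BiTS against isotype, BiTS against BiTS(mut) and BiTS(mut) against isotype. Ciita in BiTS against isotype was the 1 member among them, and DESeq2 and limma-voom also called 0 genes. Ciita stood at a log2 fold change of -1.38 ± 0.55 against isotype in that fit, with an adjusted p of 1 by edgeR. With a block for the set, 2 of the 10 genes fell in BiTS against isotype, where 1.59% of all genes were called lower, and 1 of 10 fell in BiTS against BiTS(mut), where 0.7% were. The members called higher were 0 in both, beside 1.81% and 0.272% of all genes.

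Ciita was called in both of these comparisons, which share the BiTS libraries. Against isotype its log2 fold change within sets was -1.39 ± 0.25 (edgeR adjusted p = 0.00029), and it was lower in 2 of 2 sets. It remained called when any 1 library was left out, with values of -1.76 to -1.21. With the same block the call was lost with scaling to the spike-in transcripts (-1.40 ± 0.46, edgeR adjusted p = 1), and DESeq2 gave -1.43 ± 0.37 with no adjusted p. Against BiTS(mut) the log2 fold change was -1.25 ± 0.25 (edgeR adjusted p = 0.0028), again lower in 2 of 2 sets. That call was lost without BiTS replicate 2 (edgeR adjusted p = 0.0526), without BiTS(mut) replicate 1 (0.0604) and without BiTS(mut) replicate 2 (0.126). It was also lost with DESeq2 (DESeq2 adjusted p = 0.0880) and with spike-in scaling (-1.16 ± 0.46, edgeR adjusted p = 1). BiTS(mut) against isotype gave -0.14 ± 0.22 for Ciita, with a 95% interval of -0.57 to 0.30.

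The other call belonged to H2-Aa, the alpha chain of I-A, and it was small. H2-Aa had 143 and 62.6 CPM in the BiTS libraries, 175 and 73.8 CPM in the BiTS(mut) libraries, and 176 and 78.4 CPM in the isotype libraries. Within each set the BiTS library was the lowest of the 3, while across the sets the groups overlapped. Against isotype the within-set log2 fold change was -0.31 ± 0.09 (edgeR adjusted p = 0.0277), and the call was lost without BiTS replicate 1, BiTS replicate 2, BiTS(mut) replicate 1 or BiTS(mut) replicate 2, with edgeR adjusted p of 0.249, 0.265, 0.101 and 0.114. Against BiTS(mut) it was -0.27 ± 0.09 (edgeR adjusted p = 0.155).

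**Figure D2:**
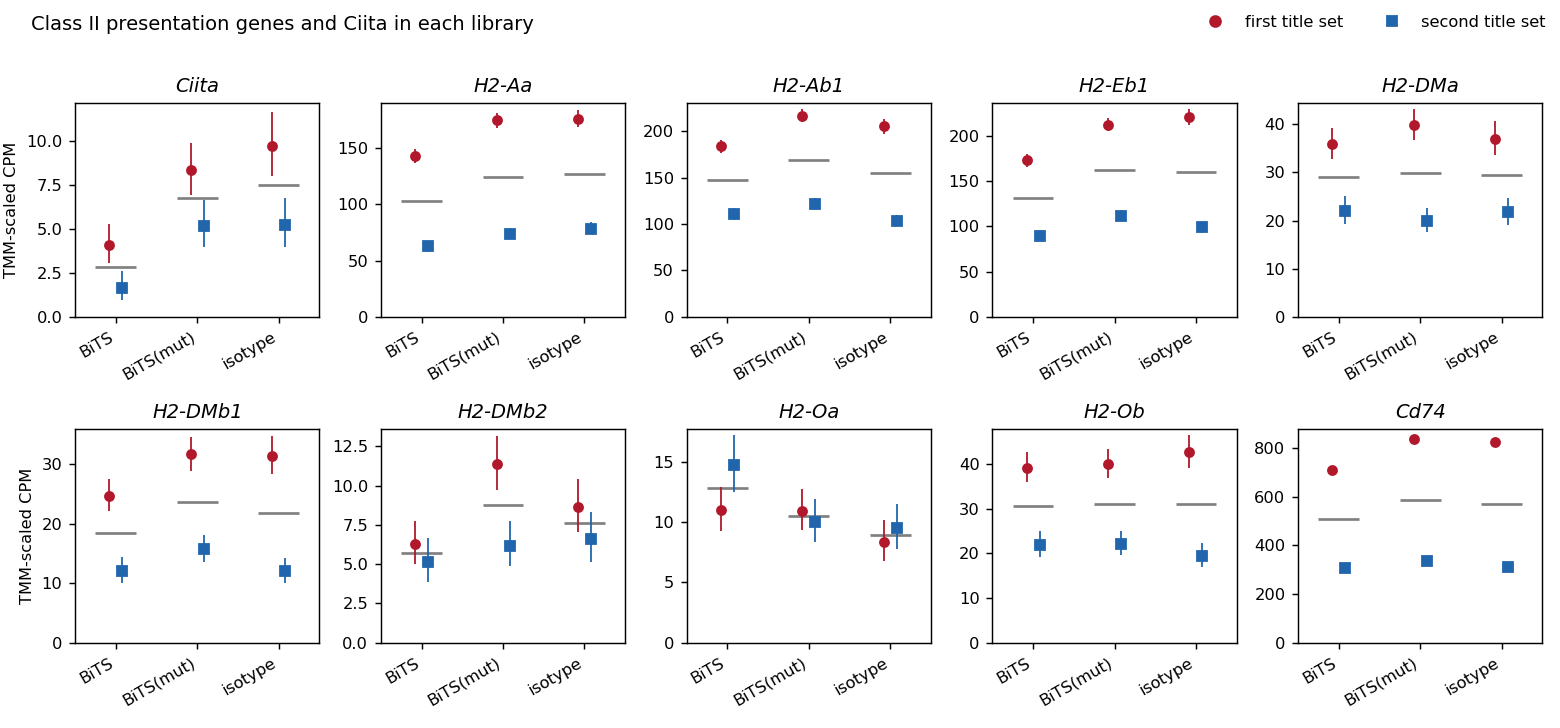
TMM-scaled CPM of each gene in the 6 libraries, by group and title set. Grey lines are group means, and bars are exact 95% Poisson intervals, which cover counting error only. For Ciita both BiTS libraries lie below the other 4, and for the 7 genes other than Ciita, H2-DMb2 and H2-Oa all libraries of the second set lie below all of the first.

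The remaining antigen-binding chains and the invariant chain did not pass the test in any treatment comparison. H2-Eb1, the beta chain of I-E, had 173 and 89.5 CPM in BiTS, 212 and 112 CPM in BiTS(mut), and 221 and 98.7 CPM in isotype libraries. Its log2 fold change within sets was -0.25 ± 0.09 against isotype (edgeR adjusted p = 0.101) and -0.31 ± 0.09 against BiTS(mut) (edgeR adjusted p = 0.0715). H2-Ab1, the beta chain of I-A, had 183 and 111 CPM in BiTS, 217 and 122 CPM in BiTS(mut), and 205 and 103 CPM in isotype libraries. Its log2 fold change was -0.04 ± 0.09 against isotype, with a 95% interval of -0.21 to 0.13, and -0.19 ± 0.09 against BiTS(mut), with an interval of -0.37 to -0.02 (edgeR adjusted p = 0.484). Cd74 had 709 and 307 CPM in BiTS, 838 and 334 CPM in BiTS(mut), and 828 and 309 CPM in isotype libraries, a log2 fold change against isotype of -0.12 ± 0.08 with an interval of -0.28 to 0.04. Against BiTS(mut) it was -0.18 ± 0.08, with an interval of -0.35 to -0.02 (edgeR adjusted p = 0.488).

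The I-E alpha chain gene, listed as the pseudogene H2-Ea-ps, had 0 counts in all 6 libraries, which allows up to 0.195 to 0.284 CPM per library. H2-Eb1, whose protein pairs with the I-E alpha chain, was thus present without detectable transcript of that chain. H2-Eb2, a further beta chain gene, had 0.887 and 0.568 CPM in BiTS, 2.01 and 0.576 CPM in BiTS(mut), and 1.57 and 0.825 CPM in isotype libraries.

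The DM genes, which encode the peptide editor, did not pass the test in any treatment comparison of the main edgeR fits. H2-DMa had 35.9 and 22.1 CPM in BiTS, 39.9 and 20.0 CPM in BiTS(mut), and 37.0 and 21.8 CPM in isotype libraries, with a log2 fold change of -0.02 ± 0.12 against isotype (interval -0.27 to 0.23). H2-DMb1 had 24.7 and 12.02 CPM in BiTS, 31.6 and 15.7 CPM in BiTS(mut), and 31.4 and 12.01 CPM in isotype libraries. H2-DMb2 had 6.28 and 5.11 CPM in BiTS, 11.4 and 6.17 CPM in BiTS(mut), and 8.61 and 6.60 CPM in isotype libraries. Both BiTS libraries lay below both isotype libraries for H2-DMb2, whose log2 fold change was -0.42 ± 0.22 against isotype (edgeR adjusted p = 0.360) and -0.62 ± 0.21 against BiTS(mut) (edgeR adjusted p = 0.192). For H2-DMb1 the values were -0.21 ± 0.14 and -0.37 ± 0.14 (edgeR adjusted p = 0.520 and 0.285).

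The DO genes, which encode the inhibitor of DM, were not called in any treatment comparison of the main edgeR fits either. H2-Oa, the alpha chain of DO, had 11.02 and 14.8 CPM in BiTS, 10.97 and 10.03 CPM in BiTS(mut), and 8.36 and 9.53 CPM in isotype libraries. It was the only one of the 10 genes with a positive log2 fold change in BiTS against isotype, 0.52 ± 0.18, higher in 2 of 2 sets and without overlap between the groups, but short of the threshold (edgeR adjusted p = 0.108). H2-Ob, the beta chain, had 39.1 and 21.9 CPM in BiTS, 40.0 and 22.1 CPM in BiTS(mut), and 42.6 and 19.4 CPM in isotype libraries. Its log2 fold change against isotype was -0.00 ± 0.12, with an interval of -0.25 to 0.24.

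The direction of all 10 genes was also counted within each set. Against isotype 5 were lower in both sets, as were 27.9% of all tested genes, and against BiTS(mut) 8 were, beside 28.3% of all genes. H2-Oa was higher in both sets in both comparisons, beside 28.2% of all genes against isotype and 28.3% against BiTS(mut). Its first-set difference from BiTS(mut) was 0.0067 on the log2 scale, from 149 counts in BiTS and 169 in BiTS(mut). The lack of overlap of H2-Oa with BiTS(mut) given below rests on the same 2 libraries. The median log2 fold change over the 10 was -0.17 against isotype and -0.23 against BiTS(mut), with medians of -0.00 and 0.00 over all tested genes. Between the groups, 3 of the 10 did not overlap against isotype, Ciita and H2-DMb2 being lower (9.5% of all genes) and H2-Oa higher (11.3%). Against BiTS(mut) 2 did not overlap, Ciita being lower (7.85%) and H2-Oa higher (8.71%). For BiTS(mut) against isotype 0 of 10 were called, as were 0.05% of all genes, with log2 fold changes from -0.14 to 0.24. DESeq2 and limma-voom with the same block also called 0 members there, and 0 members had an unadjusted p under 0.05 by edgeR. The 1 gene without overlap between BiTS(mut) and isotype was H2-Oa, which was higher (6.82% of all genes). The 3 comparisons share libraries pairwise, so their values are not independent of each other.

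**Figure D3:**
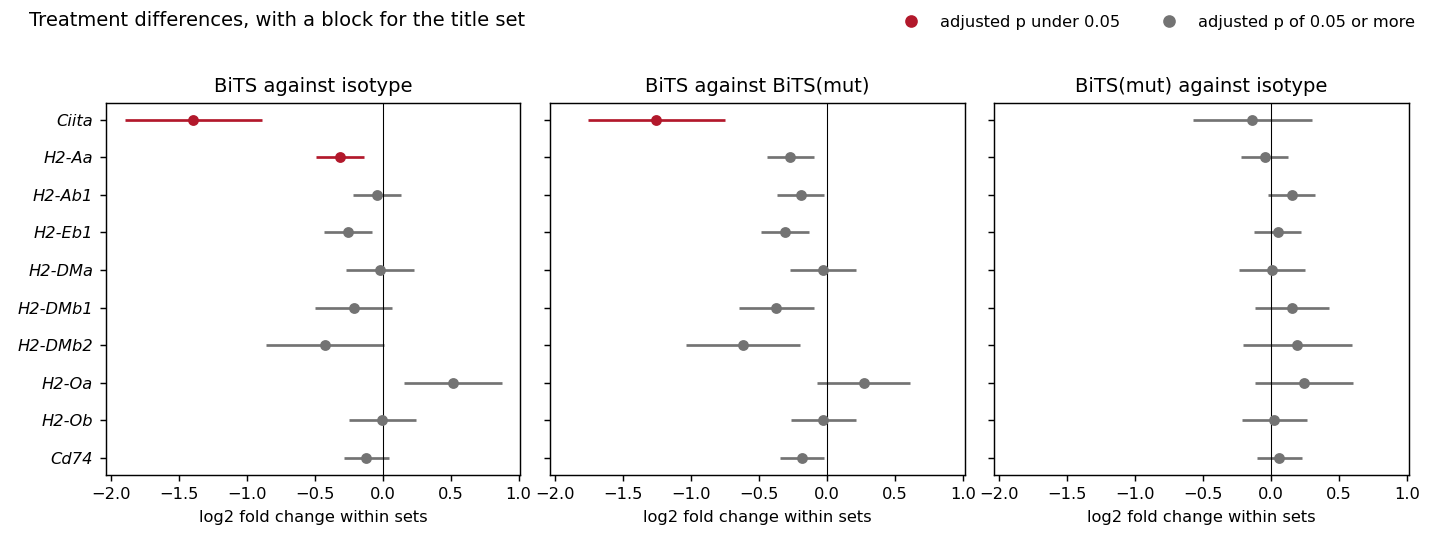
Log2 fold change within title sets for each gene in 3 comparisons, with 95% intervals from the edgeR fit with a set block. Ciita lies at -1.39 and -1.25 in the BiTS comparisons and at -0.14 in BiTS(mut) against isotype, and all other genes lie within -0.62 and 0.52.

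Dendritic cell markers also differed with BiTS, so Ciita was set against other genes of the same libraries, a step added after the data were seen. Of 15 tested dendritic cell markers 6 fell and 0 rose in BiTS against isotype, with a median of -0.37, and 6 fell and 0 rose against BiTS(mut), with a median of -0.27. Of all genes 1.59% and 0.7% were called lower in these 2 comparisons. Those that fell against isotype include Ccl17 (-1.03 ± 0.14), Ccl22 (-0.73 ± 0.09), Cd40 (-0.85 ± 0.15) and Cd83 (-0.55 ± 0.09), which are genes of activated dendritic cells. In all, 14 of the 15 were negative there and 1 was positive. Ccr7 was higher in BiTS than in isotype in both sets (715 against 702 CPM, and 508 against 433 CPM). The 6 lineage genes summed to 302 CPM in BiTS and 415 CPM in isotype in the first set. In the second set they summed to 133 and 128 CPM. Against isotype the T cell list had 3 of 9 tested members higher and 0 lower, beside 1.81% of all genes called higher. Lum, a stromal gene, fell in both comparisons (-1.79 ± 0.32 against isotype and -1.74 ± 0.32 against BiTS(mut)), as 1 of 4 tested stromal markers. Of the 6 tested macrophage and monocyte markers edgeR called 0 in either comparison, with 0 at an unadjusted p under 0.05. Of the 5 tested B cell markers it called 0, with 3 at an unadjusted p under 0.05 against isotype and 1 against BiTS(mut). The part of these cell types in the Ciita values was not tested beyond the ratios that follow. Ciita per 1000 CPM of H2-Aa, H2-Ab1, H2-Eb1 and Cd74 was 3.37 and 2.82 in BiTS, 5.76 and 8.08 in BiTS(mut), and 6.78 and 8.86 in isotype libraries. The ratio was lower in both BiTS libraries than in all 4 others.

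With libraries scaled to those 4 genes, Ciita kept a log2 fold change of -1.22 ± 0.26 in BiTS against isotype (edgeR adjusted p = 0.00035) and -1.03 ± 0.26 in BiTS against BiTS(mut) (edgeR adjusted p = 0.007). This scaling moved the median of all genes by 0.14 and 0.22, and 0.557% and 0.264% of genes were called lower in it. Against isotype the call held without any 1 library, with values from -1.68 to -0.99. Against BiTS(mut) it was lost without BiTS replicate 2 (edgeR adjusted p = 0.0850), BiTS(mut) replicate 1 (0.533) or BiTS(mut) replicate 2 (0.760). With libraries scaled to 6 dendritic cell lineage genes (Itgax, Flt3, Zbtb46, Xcr1, Clec9a and Wdfy4) Ciita stood at -1.16 ± 0.31 against isotype (edgeR adjusted p = 0.068) and -1.11 ± 0.31 against BiTS(mut) (edgeR adjusted p = 0.224), neither past the threshold. That scaling moved the median of all genes by 0.20 and 0.14, and 0.236% and 0.0643% of genes were called in it.

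The 4 chain and invariant chain genes were also set against the dendritic cell lineage genes. Their summed CPM over that of the 6 lineage genes was 4.01 and 4.30 in BiTS, 4.19 and 4.55 in BiTS(mut), and 3.44 and 4.62 in isotype libraries. This ratio overlapped between all 3 groups. Relative to the lineage genes, edgeR called 0 of the other 9 members in the 3 treatment comparisons, with log2 fold changes from -0.46 to 0.71. H2-Oa in BiTS against isotype alone had an unadjusted p under 0.05 by edgeR (edgeR adjusted p = 0.489), and 0.0429% of all genes were called in BiTS(mut) against isotype in that scaling. H2-Oa relative to the 4 chain and invariant chain genes was higher in BiTS against isotype (0.66 ± 0.19, edgeR adjusted p = 0.0136), where 5.17% of genes were called higher, and that call was lost without BiTS replicate 2 (0.217), isotype replicate 1 (0.113), BiTS(mut) replicate 1 (0.103) or BiTS(mut) replicate 2 (0.0998).

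**Figure D4:**
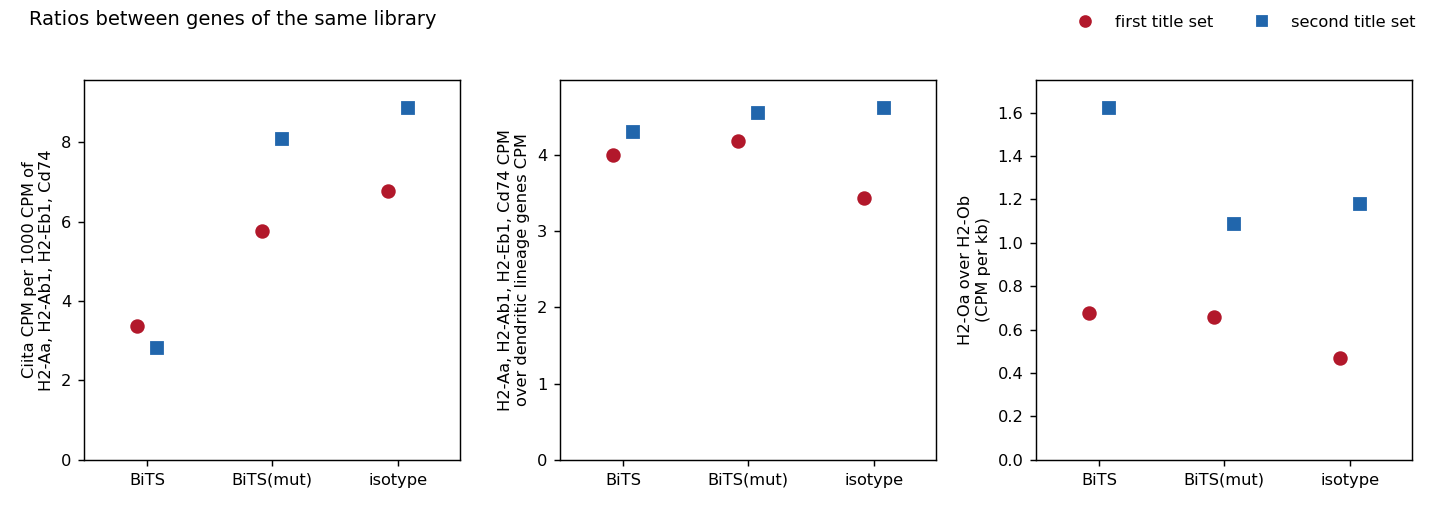
Ratios between genes of the same library, by group and title set: Ciita per 1000 CPM of 4 class II genes, those 4 genes over 6 dendritic cell lineage genes, and H2-Oa over H2-Ob per kb. Ciita is lowest in the BiTS libraries (3.37 and 2.82), the second ratio stays between 3.44 and 4.62, and H2-Oa over H2-Ob is above 1 in the second set only.

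For the 7 genes other than Ciita, H2-DMb2 and H2-Oa, the log2 fold change between the title sets was larger in size than any between treatments. In the second set against the first, 9 of the 10 genes fell, where 26.9% of all genes were called lower, and all but Ciita, H2-DMb2 and H2-Oa had no overlap between the sets, as had 27.8% of all genes in that direction. The summed CPM of the 10 genes was 0.0647%, 0.072% and 0.0665% of the scaled counts in the second set (BiTS, BiTS(mut) and isotype) and 0.133%, 0.158% and 0.157% in the first. Log2 fold changes were -1.32 ± 0.07 for Cd74, -1.20 ± 0.07 for H2-Aa, -1.14 ± 0.11 for H2-DMb1 and -1.01 ± 0.07 for H2-Eb1. They were -0.94 ± 0.10 for H2-Ob, -0.89 ± 0.20 for Ciita, -0.85 ± 0.07 for H2-Ab1, -0.82 ± 0.10 for H2-DMa and -0.55 ± 0.17 for H2-DMb2, with edgeR adjusted p of at most 0.00588 for the 9. The median over the 10 was -0.92, beside 0.02 over all tested genes.

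H2-Oa was the exception, with 14.8, 10.03 and 9.53 CPM in the second set (BiTS, BiTS(mut) and isotype) and 11.02, 10.97 and 8.36 CPM in the first. Its log2 fold change between sets was 0.16 ± 0.14 (edgeR adjusted p = 0.350), with an interval of -0.13 to 0.45. Scaling to the spike-in transcripts moved the median of all genes to -0.74, where H2-Oa stood at -0.60 and so 0.14 above that median. Per kb, H2-Oa over H2-Ob was 1.62 in BiTS, 1.09 in BiTS(mut) and 1.18 in isotype libraries of the second set, and 0.676, 0.658 and 0.472 in the first, with no overlap between the sets. The call of H2-DMb2 between sets was lost without either BiTS(mut) library (-0.35 each, edgeR adjusted p of 0.261 without replicate 1 and 0.249 without replicate 2) and with DESeq2 (DESeq2 adjusted p = 0.0845).

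Markers of dendritic cells and macrophages moved the same way between the sets. Of the 15 tested dendritic cell markers 13 fell and 1 rose (Batf3, 0.36 ± 0.07), with a median of -1.003. Among all tested genes 26.9% were called lower and 52.7% were called in either direction. Itgax, the CD11c gene, fell by 1.39 on the log2 scale (edgeR adjusted p = 7.4e-20). The 18 markers summed to 1121 to 1244 CPM in the second set and 1599 to 1986 CPM in the first. The 6 lineage genes among them summed to 128 to 141 CPM in the second set and 302 to 415 CPM in the first. The macrophage list had 4 of 6 tested members lower and 1 higher, and the T cell list 5 of 9 higher and 0 lower. Their part in the class II difference was not tested beyond the following scaling.

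Relative to the 6 dendritic cell lineage genes 6 of the 10 were called higher in the second set by edgeR, where 92.1% of all genes were called higher, and 0 were called lower, where 0.3% of all genes were. All 10 had positive values, and the median of all genes in that scaling was 1.41. Cd74 (0.07 ± 0.21), H2-Aa (0.19 ± 0.21), H2-DMb1 (0.25 ± 0.21) and H2-Eb1 (0.38 ± 0.21) were not called. Of those called, H2-Ob, Ciita, H2-Ab1, H2-DMa and H2-DMb2 stood at 0.45 to 0.86. H2-Oa was at 1.54 ± 0.21, above the median of all genes in that scaling, and the other 9 were below it.

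**Figure D5:**
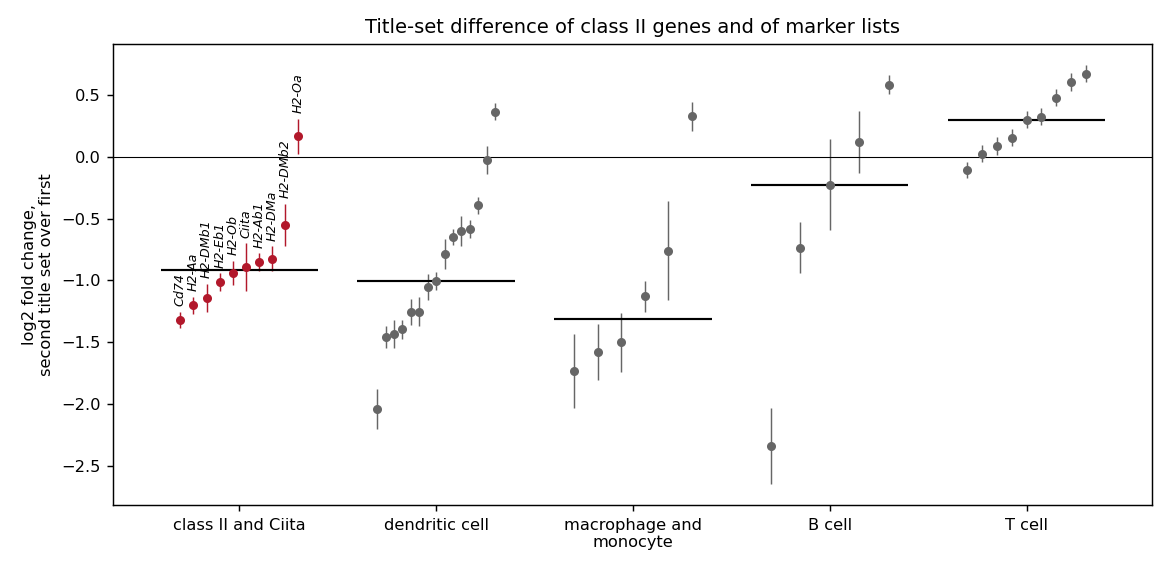
Log2 fold change of the second title set over the first for the 10 genes and for 4 marker lists, with standard errors and list medians as black lines. Except for H2-Oa at 0.16, the class II genes lie between -1.32 and -0.55, with a median of -0.92, and the dendritic cell markers have a median of -1.003.

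The factors that CIITA docks on did not pass the test with treatment. Of the 8 genes of the promoter complex (Rfx5, Rfxap, Rfxank, Nfya, Nfyb, Nfyc, Creb1 and Atf1) edgeR called 0 in BiTS against isotype, with 1 at an unadjusted p under 0.05, and 0 in BiTS against BiTS(mut), with 0 at an unadjusted p under 0.05. Their log2 fold changes lay from -0.20 to 0.19. Between the sets 4 fell, namely Creb1 (-0.45 ± 0.08), Rfx5 (-0.38 ± 0.10), Atf1 (-0.31 ± 0.08) and Nfyb (-0.27 ± 0.08), and Rfxank rose (0.28 ± 0.10). That is near the share of all tested genes, of which 52.7% were called between the sets and 26.9% were called lower. Rfx5 had 30.7 and 25.5 CPM in BiTS, 33.8 and 28.9 CPM in BiTS(mut), and 36.8 and 23.3 CPM in isotype libraries.

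Interferon gamma is the textbook inducer of Ciita, with IRF1 among the factors that act on it. Ifng had 33.8 and 56.9 CPM in BiTS, 81.8 and 151 CPM in BiTS(mut), and 83.7 and 198 CPM in isotype libraries. It fell in BiTS against isotype (-1.57 ± 0.10, edgeR adjusted p = 1.50e-16) and against BiTS(mut) (-1.35 ± 0.10, edgeR adjusted p = 5.89e-14), in 2 of 2 sets each. Between the sets Ifng was higher in the second, at 0.98 ± 0.08, where Ciita was lower. Among all tested genes 26.9% were called lower there and 52.7% in either direction. Of the 10 genes from the cytokine to Ciita 6 fell there and 2 rose. Of those 10 genes, Ifng and Socs1, an inhibitor of the pathway (-0.33 ± 0.09), fell in BiTS against isotype and Ifngr1, a receptor chain, rose (0.35 ± 0.09). Irf1 (-0.12 ± 0.08, edgeR adjusted p = 0.545) was not called. Against BiTS(mut) Ifng alone fell and Ifngr1 rose. Of all genes 1.59% were called lower and 1.81% higher against isotype, and 0.7% and 0.272% against BiTS(mut). Any link of these genes to the Ciita values, between treatments or between sets, was not tested.

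Other factors known to act on Ciita include PU.1 (Spi1) and IRF8 at its dendritic cell promoter. Of 9 tested regulators 3 fell in BiTS against isotype, namely Irf4 (-0.38 ± 0.08, edgeR adjusted p = 0.00365), Irf8 (-0.33 ± 0.08, edgeR adjusted p = 0.00805) and Spi1 (-0.34 ± 0.10, edgeR adjusted p = 0.0442). Among all genes 1.59% were called lower in that comparison. Against BiTS(mut) 0 of the 9 were called by edgeR, with 3 at an unadjusted p under 0.05, and Irf8 (-0.24 ± 0.08) and Spi1 (-0.22 ± 0.10) had the same sign. Between the sets Spi1 (-1.32 ± 0.08) and Irf8 (-0.37 ± 0.06) fell, while Irf4 rose (0.37 ± 0.07). Pax5, which drives Ciita in B cells, had at most 3 counts in every library. Any link of these regulators to the Ciita values was not tested.

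Of 11 tested genes that process antigen or turn class II over, Ifi30, the lysosomal thiol reductase, fell in BiTS against isotype. Among all genes 1.59% were called lower there. Ifi30 had 107 and 60.1 CPM in BiTS, 139 and 71.8 CPM in BiTS(mut), and 135 and 72.1 CPM in isotype libraries, a log2 fold change of -0.30 ± 0.09 against isotype (edgeR adjusted p = 0.0400). Against BiTS(mut) 0 of the 11 were called by edgeR, with 3 at an unadjusted p under 0.05. Between the sets 9 fell and 1 rose, beside 26.9% of all genes called lower and 52.7% called in either direction. Lgmn and Ctss, proteases that cut antigen and the invariant chain, had log2 fold changes of -1.84 ± 0.08 and -1.48 ± 0.07, and March1, the ubiquitin ligase that removes class II from the surface, of -1.73 ± 0.19. Ctsd rose (0.35 ± 0.08).

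Over the 6 libraries the genes most like Ciita, by root mean square difference of centred log2 CPM among 10209 genes, were Il1b (0.178), Apol7c (0.202), Selp (0.209), Il3 (0.225) and Il12b (0.262). The genes most like the mean of H2-Aa, H2-Ab1, H2-Eb1 and Cd74 were Bmp2k (0.0393), Slc37a2 (0.0401), Mfge8 (0.0566), Spint1 (0.0566) and Gsn (0.0598). Il1b, the gene nearest to Ciita, had 6.28 and 1.80 CPM in BiTS, 9.47 and 6.58 CPM in BiTS(mut), and 10.1 and 6.69 CPM in isotype libraries. Like Ciita it was lowest in both BiTS libraries within their sets. Bmp2k, the gene nearest to the chain genes, had 83.9 and 40.4 CPM in BiTS, 102 and 46.6 CPM in BiTS(mut), and 101 and 41.1 CPM in isotype libraries, with all libraries of the second set below all of the first.

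On the opposite strand Ciita overlaps Dexi and H2-Oa overlaps BC051537, and the strand setting of the counting is not given in the sources used here. Dexi had 11.2 and 16.6 CPM in BiTS, 12.1 and 13.7 CPM in BiTS(mut), and 10.4 and 15.3 CPM in isotype libraries. Its log2 fold change was 0.11 ± 0.16 in BiTS against isotype (edgeR adjusted p = 0.81) and 0.43 ± 0.13 between the sets. Any part of reads from Dexi in the Ciita counts was not tested. BC051537 had at most 3 counts in any library.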

How the data were processed

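The deposited values are raw counts of reads per gene made by the authors, 1 table per library, with the exon length (in bases) of each gene per the file headers. The submitters' processing notes name mm10 and DESeq2. For the aligner, counter, annotation and strand setting, nothing was given in the sources used here. Symbols came from GENCODE M21 for 49412 of 49671 identifiers, and those without a symbol held 0.0133% of the counts. The 92 ERCC spike-in transcripts (3.36% to 7.54% of counts) were left out. Intervals and the limit of 3 counts, 0.195 to 0.284 CPM, cover counting error only.

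After TMM scaling and filterByExpr, counts were tested two-sided in edgeR 4.0.16 (quasi-likelihood, limma 3.58.1, R 4.3.3) over 13996 genes and all 6 libraries, once with 1 coefficient per group and once with a block for the title set. Library deviations from the mean of their group had correlations of 0.66, 0.74 and 0.73 inside the sets, so the pairing comes from the title numbers and these data and not from a stated batch. The block fit had 45.9 prior and 2 residual degrees of freedom, and the fit without it 3.14 and 3. The p-values of the block fit thus rest mostly on a spread shared over the tested genes. On simulated data for BiTS against isotype (13746 genes with a set difference), the block fit recovered 79.8% of genes changed by 1 and 99% of those changed by 2 on the log2 scale, and the fit without it 0%. The set difference was built into those data, so they cannot show which fit suits the real libraries. The block fit also called 14 unchanged genes there. With no set difference simulated, the fit without a block recovered 86.6% and 96% and called 10 unchanged genes. CPM per kb is TMM-scaled CPM over exon length. Alternatives were DESeq2 1.42.0, limma-voom, RLE factors, library totals, 2 other filters, spike-in scaling, 4 libraries and leaving out each library. The sequences are from RefSeq (GRCm38.p6).

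The genes, lists and tests were chosen with earlier results of these data known. From the other lists, up to 4 called genes by smallest p were eligible to be named, together with genes a result turns on. Likeness was the smallest root mean square difference among genes averaging 5 CPM or more. Irf1, Rfxank, Ctsd, Batf3, Itgax and Pax5, named outside that rule, were chosen after their values were seen.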

Additional observations from a re-analysis of the deposited data

Results flagged for a closer look

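In 9 cases a gene's log2 difference had opposite signs in the first and second title sets. With 1 library per group in a set, the difference between the sets was not tested. In BiTS against isotype, H2-Ab1 stood at -0.16 in the first set and 0.10 in the second, H2-DMa at -0.046 and 0.015, H2-DMb1 at -0.35 and 0.0013, and H2-Ob at -0.12 and 0.17. In BiTS against BiTS(mut), H2-DMa stood at -0.15 in the first set and 0.14 in the second. In BiTS(mut) against isotype, H2-Eb1 stood at -0.056 in the first set and 0.18 in the second, H2-DMa at 0.11 and -0.13, H2-DMb2 at 0.40 and -0.10, and H2-Ob at -0.091 and 0.19. None of these genes was called in the comparison concerned, and Ciita, H2-Aa, H2-Oa and Cd74 kept their sign in both sets of every comparison.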

How the results depend on the processing

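The replicate block for the title set decided the treatment calls. Without a block 0 genes and 0 of the 10 members were called in BiTS against isotype and in BiTS against BiTS(mut), and 0 genes in BiTS(mut) against isotype. With it 476, 136 and 7 genes and 2, 1 and 0 members were called in the 3 comparisons in that order. Without a block and without the filter on low counts, 11, 3 and 5 genes were called. With the block kept, the counts of genes called were 160, 41 and 2 by DESeq2, with 0 members in each (Ciita against isotype had a log2 fold change of -1.43 and no adjusted p there), 0, 0 and 1 with spike-in scaling, with 0 members, and 14 for BiTS(mut) against isotype without the filter. With only the 4 libraries compared, 295 genes and 1 member were called in BiTS against isotype and 442 genes and 5 members in BiTS against BiTS(mut). With all 6 libraries and the block, H2-Aa, H2-Eb1, H2-DMb1 and H2-DMb2 were lower but not called against BiTS(mut). Their unadjusted p by edgeR were 0.0032, 0.00089, 0.0094 and 0.0046. Leaving out each library gave 130 to 937, 25 to 435 and 7 to 132 genes, 1 to 3 members in BiTS against isotype and 0 to 5 in BiTS against BiTS(mut). The cause was not tested.

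Signs reversed for differences near 0. H2-Ob in BiTS against isotype turned to 0.0018 by DESeq2 and 0.0032 with 4 libraries, and H2-DMa in BiTS(mut) against isotype to -0.0072 with library totals alone. Spike-in scaling, which moved the median of all genes by 0.05, 0.18 and -0.12, turned H2-Ab1, H2-DMa and H2-Ob in BiTS against isotype to 0.034, 0.044 and 0.086. It turned H2-DMa, H2-Ob and Cd74 in BiTS against BiTS(mut) to 0.15, 0.16 and 0.00089, and H2-Eb1, H2-DMa, H2-Ob and Cd74 in BiTS(mut) against isotype to -0.062, -0.11, -0.072 and -0.052. It turned H2-Oa between the sets to -0.60, with a median of -0.74.

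Leaving out each library gave, in BiTS against isotype, -0.14 to 0.065 for H2-Ab1, -0.10 to 0.085 for H2-DMa, -0.12 to 0.16 for H2-Ob and -0.35 to 0.0067 for H2-DMb1. In BiTS against BiTS(mut) it gave -0.14 to 0.13 for H2-DMa and -0.092 to 0.064 for H2-Ob. In BiTS(mut) against isotype it gave -0.15 to 0.12 for H2-DMa, -0.049 to 0.16 for H2-Eb1, -0.091 to 0.18 for H2-Ob, -0.0083 to 0.13 for Cd74, -0.13 to 0.42 for H2-DMb2 and -0.28 to 0.072 for Ciita (-0.54 to 0.37 without a block). Relative to dendritic cell lineage genes it gave -0.029 to 0.13 for Cd74 between sets and -0.30 to 0.14 for Ciita in BiTS(mut) against isotype. Of 706 values for single genes under these alternatives, 607 kept both sign and side of the threshold and 42 reversed. With the block, the Ciita call in BiTS against isotype was lost with spike-in scaling (-1.40, edgeR adjusted p = 1). It was also lost with the scaling to dendritic cell lineage genes given above. It held under every other alternative with the block except DESeq2. There DESeq2 gave Ciita an unadjusted p of 0.00012 and no adjusted p, so a call could not be read. With 2 libraries per group and 17 counts in 1 of them, the 95% interval of the Ciita difference against isotype was -1.90 to -0.89 with the block and -2.73 to -0.03 without it.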
